A study of Homo sapiens with 4 samples.

Results

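The ATF4 branch of the stress response was followed here through 10 genes, ATF4, TRIB3, ASNS, DDIT3, CHAC1, SESN2, DDIT4, PSAT1, PHGDH and PPP1R15A, out of 34755 gene symbols on the arrays. The genes were selected on earlier readings of these same arrays, in which ATF4, TRIB3 and ASNS were lower after treatment, together with known targets of ATF4, so the values below are descriptions and carry no test. Taking all probes with these symbols gave 11 probes, 2 of them for CHAC1, and 9 of the 10 genes were measured above background in both colours on every array. ATF4 is a transcription factor whose protein is made when stress leads to phosphorylation of the initiation factor eIF2, which slows most translation but favours the ATF4 message. ATF4 then switches on genes for amino acid synthesis and uptake, for charging of transfer RNA and for cell death or recovery. The kinases that phosphorylate eIF2 respond to unfolded protein in the endoplasmic reticulum (PERK), to amino acid shortage (GCN2), to heme shortage (HRI) and to double-stranded RNA (PKR).

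RNA came from SUM149, a line of inflammatory breast cancer cells, left untreated or exposed to Ricolinostat (ACY1215), an inhibitor of the deacetylase HDAC6, at 2.5 uM during 3, 6 or 12 hours. Each condition had 1 two-colour Agilent array, with the sample in Cy5 and a common reference in Cy3. There were no replicates, so no test, standard error or p-value is given, and 0 arrays of vehicle-treated cells were analysed here, so drug and time in culture cannot be told apart. Each change is the difference in normalized log2(Cy5/Cy3) between a treated array and the untreated one, so that a change of -1 is 2-fold lower.

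The median Cy5 signal of all spots was 36 to 40 units on the 4 arrays over a median background of 24 units. Repeated spots of 1 probe gave the technical error, an SD of 0.15, 0.12 and 0.12 for a log2 change at 3, 6 and 12 hours (300 probes), which does not include any spread between cultures. All 11 epithelial and basal markers looked at, such as KRT5 and EPCAM, were well above background on every array. So were 12 of 14 markers of other cells or receptors, at 34 to 1867 units, while PGR and HBB were not. The reference is labelled as a pool of the SUM149 samples, yet albumin (ALB) gave 21137 to 22178 units in Cy3 and 154 to 231.5 units in Cy5, and for 310 genes the weakest reference signal exceeded the strongest sample signal 8-fold or more. Changes in the sample channel alone are therefore given beside the ratios of the 10 genes. These Cy5 values were taken after the same normalization of both colours, in which Cy3 takes part. They are thus not free of the reference, and their sign can differ from that of the scanner signals. Areas of damaged spots covered 2.14% of the untreated array and 4.69% of the 3-hour array, and touched SESN2, PPP1R15A and 2 spots of DDIT4.

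Promoter sequence was available for all 10 genes, and 2 of them held the letters TGATGNAA, the core of the joint ATF4 and C/EBP element, in the 250 bases before the start on either strand. The same letters were found before 1061 of 27305 genes (3.89%). Across the 10 gene lists described below the share ran from 0% to 30.0%. It was 3 of 10 for the bZIP factors, 3 of 11 for the transfer RNA list and 2 of 11 for p53 targets. For the other targets of ATF4 or CHOP it was 0 of 14. The match was thus not particular to the branch. The ASNS window (RefSeq, GRCh38.p14, chr7:97872443-97872502, minus strand) and the CHAC1 window (chr15:40953236-40953295, plus strand) are shown because they hold the match. Capitals mark the match, which in CHAC1 lies on the other strand and so reads reversed and complemented.
ASNS: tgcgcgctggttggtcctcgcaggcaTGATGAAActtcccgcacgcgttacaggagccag
CHAC1: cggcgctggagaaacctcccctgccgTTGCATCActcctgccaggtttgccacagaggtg
The match lies 68 to 61 bases before the start of ASNS and 209 to 202 bases before that of CHAC1. Such a match is a description of sequence, and binding was not measured.

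The branch did not move as 1 block. Of the 9 measured genes, 5 lay below the untreated array at all 3 times (ATF4, TRIB3, ASNS, PSAT1 and PHGDH), where 31.6% of all 19891 genes measured on every array did so. On the probes that represent the genes, DDIT3 and CHAC1 lay above it at all 3 times, DDIT4 went from below to above, and SESN2 from above to slightly below. The other CHAC1 probe lay below at all 3 times, and the SESN2 value at 3 hours rests on a damaged reference spot. CHAC1, SESN2, and DDIT4 at 12 hours changed sign under other processing. The median over the 9 genes was -0.39, -0.29 and -0.10 at 3, 6 and 12 hours, against 0.0075, 0.016 and 0.014 over all genes measured. In these ratios TRIB3 alone fell 2-fold or more, at 3 and 6 hours, where 0.366% and 0.939% of all genes did, and 0 of the 9 did so at 12 hours, where 1.12% of all genes did. This count depended on the processing. With median centring 0 fell 2-fold at 3 hours, 2 at 6 hours (TRIB3 and DDIT4) and 3 at 12 hours (TRIB3, ASNS and PSAT1). The share of all genes past 2-fold was not computed for that setting. The median of all genes was then itself lower, at -0.084 at 6 hours and -0.16 at 12 hours, so these counts have no background beside them. TRIB3 at 3 hours, at -1.03, was just short of 2-fold with median centring (-0.98) and with the scanner software's processed signals (-0.99), and DDIT4 passed it at 6 hours in Cy5 alone (-1.06). With a limit of 1.5-fold, TRIB3 and DDIT4 fell at 3 hours (1.96% of all genes) and again at 6 hours (4.42%), and TRIB3 and ASNS fell at 12 hours (5.13%). Because the genes were selected on this contrast, these shares are a background and not a comparison. Lower by more than the technical SD were 6, 6 and 4 of the 9 genes at 3, 6 and 12 hours, and 21.9%, 29.0% and 29.9% of all genes. Higher by more than that were 2, 2 and 3 of the 9, and 28.5%, 35.2% and 35.0% of all genes.

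**Figure D1:**
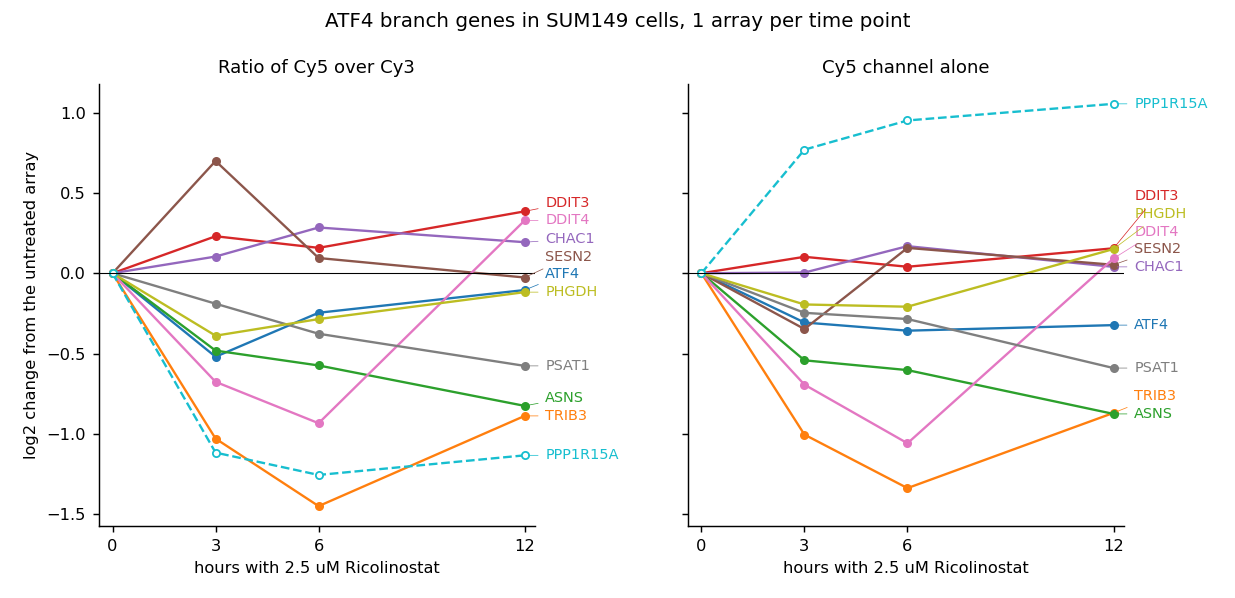
Log2 change from the untreated array (y axis) against hours with Ricolinostat (x axis) for the 10 genes, as the ratio of Cy5 over Cy3 (left) and in the Cy5 channel alone (right), with 1 array per point. TRIB3 reaches -1.45 at 6 hours, ASNS and PSAT1 go lower at each time, DDIT4 turns from -0.93 to 0.33, and PPP1R15A (open symbols, dashed), whose reference spot was damaged on the untreated array, takes opposite signs on the 2 sides.

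ATF4 itself, the factor that names the branch, was among the brightest of these probes. Its Cy5 signal was 30904 units untreated, 25130 at 3 hours, 19170 at 6 hours and 18041 at 12 hours, with a reference signal of 23109 to 27856. The log2 change of the ratio was -0.52, -0.25 and -0.10 at 3, 6 and 12 hours, so the 12-hour value lay within the technical SD. In the Cy5 channel alone the change was -0.31, -0.36 and -0.32. With median centring of each array in place of loess the ratio gave -0.48, -0.55 and -0.62. The median of all genes with that centring was 0.076, -0.084 and -0.16. ATF4 was thus below untreated in each of these measures. Its return towards the untreated level at 12 hours was seen in the loess-normalized ratio and not in Cy5 alone. With median centring ATF4 was lower at each later time, but so was the median of all genes, so a return cannot be judged there. The scanner software's processed signals (-0.52, -0.30 and -0.19) and the authors' normalized ratios (-0.54, -0.31 and -0.23) also showed the return. They are ratios over the same Cy3 spot and so not separate evidence. The normalized Cy3 signal of that spot changed by 0.21, -0.11 and -0.22 at 3, 6 and 12 hours. Since ATF4 is controlled mainly through translation, its message level does not give the amount of protein, which was not measured here.

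TRIB3, a pseudokinase that is induced by ATF4 and CHOP and that dampens AKT signalling, had the lowest ratio change of the 9 measured genes at each time. Its Cy5 signal was 6923 units untreated, 3536 at 3 hours, 2198 at 6 hours and 2768 at 12 hours. Its reference signal was between 8962 and 9745 units. Every treated sample was therefore well under the untreated one while the reference hardly varied. TRIB3 was at 49.0%, 36.6% and 54.1% of the untreated level at 3, 6 and 12 hours, or -1.03, -1.45 and -0.89 on the log2 scale. The value at 12 hours was 0.56 above that at 6 hours. In the Cy5 channel alone the changes were -1.004, -1.34 and -0.87, the last just above that of ASNS.

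The 3 enzymes of amino acid synthesis were all below untreated at every time, with different courses. ASNS makes asparagine from aspartate. Its Cy5 signal was 11575, 8320, 6252 and 4669 units from untreated to 12 hours, a lower value at each later time, while Cy3 stayed between 9489 and 10288. The log2 changes were -0.48, -0.57 and -0.83, and the 12-hour level was 56.4% of untreated. In Cy5 alone they were -0.54, -0.60 and -0.88, so that the 6-hour value was just short of 1.5-fold in the ratio and past it in Cy5. PSAT1, an aminotransferase of serine synthesis, followed the same order.

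The Cy5 signal of PSAT1 was 15320, 13567, 10337 and 7642 units. Its log2 changes were -0.19, -0.38 and -0.58, the last just short of 1.5-fold, and -0.25, -0.28 and -0.59 in Cy5 alone. Both ASNS and PSAT1 were thus lower at each later time, in the ratio as in Cy5 alone. PHGDH, which starts serine synthesis from a glycolytic intermediate, moved less. Its Cy5 signal was 2707 units untreated and 2507, 1988 and 2355 units at the successive times. The log2 changes were -0.39, -0.29 and -0.12, and at 12 hours the normalized Cy5 channel alone gave 0.15. The scanner signal in Cy5 was below untreated at that time, so the sign depends on the processing.

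**Figure D2:**
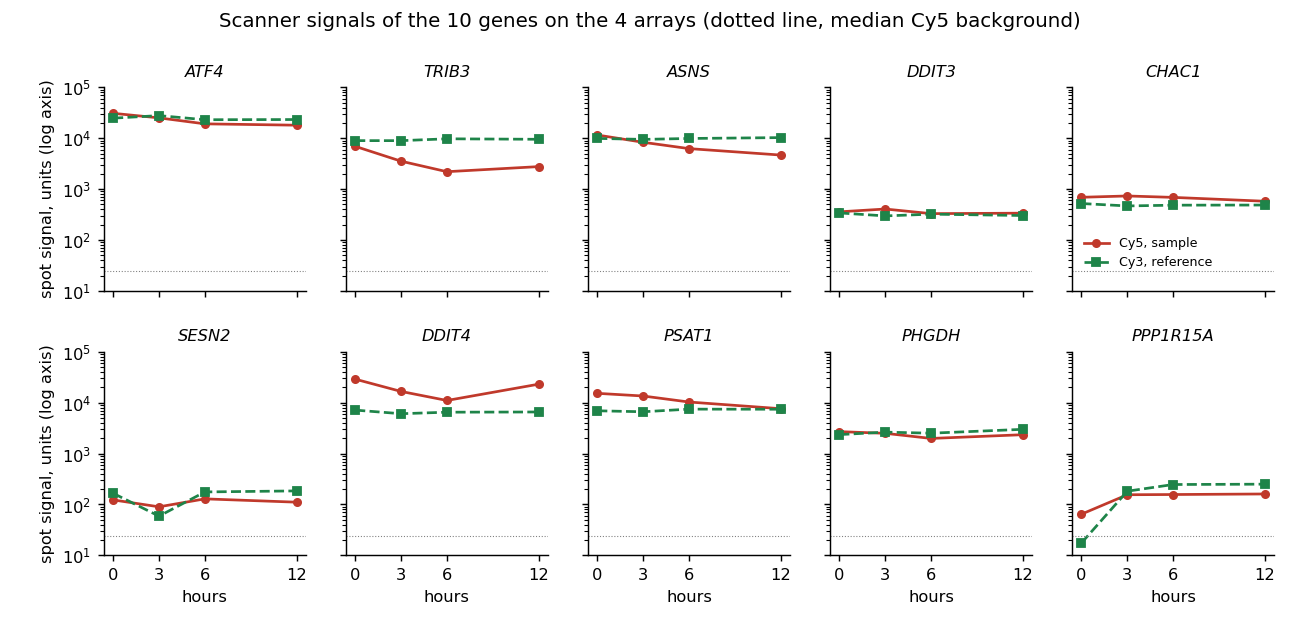
Scanner signal in units on a log axis (y) against hours (x) for the probe that represents each gene, with the sample (Cy5, circles) and the common reference (Cy3, squares). The reference is nearly flat for 8 genes, and drops to 59 units for SESN2 at 3 hours and to 17.5 units for PPP1R15A on the untreated array.

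DDIT4, also called REDD1, restrains the kinase mTORC1 and gave the sharpest turn. Its probe is printed as 10 spots, and the mean Cy5 signal over them was 29082 units untreated, 16683 at 3 hours, 11088 at 6 hours and 23173 at 12 hours. On 8 spots usable on both arrays the change at 3 hours was -0.67 ± 0.060 (SD between spots), and on 9 spots at 6 hours it was -0.92 ± 0.076, with all spots between -1.07 and -0.81. At 12 hours it was 0.33 ± 0.060 over 10 spots, between 0.25 and 0.44. The spots of 6 and 12 hours did not overlap. Spot by spot, 12 hours lay 1.26 ± 0.046 above 6 hours (9 spots, 1.21 to 1.36). A rise of 2-fold or more between these arrays was seen for 14 of 20717 genes (0.0676%). Spots of 1 array share 1 RNA sample, so this SD is technical. In Cy5 alone DDIT4 stood at -1.06 at 6 hours and 0.09 at 12 hours. With median centring of each array its 12-hour value was -0.14, where the median of all genes was -0.16. Its return from 6 to 12 hours appeared in each of these, but the sign of its level at 12 hours did not hold.

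**Figure D3:**
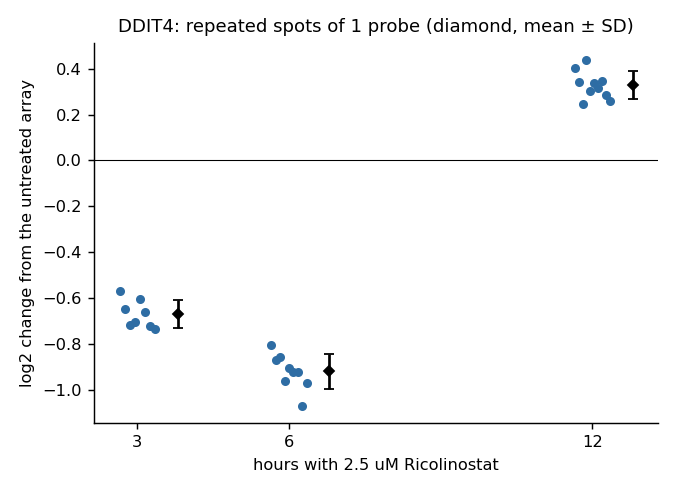
Log2 change of DDIT4 from the untreated array (y) on each repeated spot of its probe against hours (x), with 8, 9 and 10 usable spots at 3, 6 and 12 hours and the mean ± SD as diamonds. All spots are below 0 at 3 and 6 hours and above 0 at 12 hours.

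DDIT3 and CHAC1, which act towards cell death, were not below untreated in the loess-normalized ratios of the probes that represent them. This did not hold for CHAC1 under all processing. It was at -0.054 and -0.0066 at 3 and 12 hours with the scanner software's processed signals, and at -0.089 at 12 hours with median centring. DDIT3 encodes CHOP, the factor through which ATF4 promotes apoptosis in prolonged stress. Its Cy5 signal was 357.5 untreated, 406 at 3 hours, 329.5 at 6 hours and 336.5 at 12 hours, and its log2 changes were 0.23, 0.16 and 0.39. In Cy5 alone they were 0.10, 0.04 and 0.16. The first pair was smaller than the technical SD of the ratio, and no such SD was computed for Cy5 alone. CHAC1 breaks down glutathione and is induced by ATF4 and CHOP.

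Its 2 probes went opposite ways. The brighter CHAC1 probe had a Cy5 signal of 690.5, 733, 687.5 and 577.5 units and log2 changes of 0.10, 0.28 and 0.19, or 0.0041, 0.17 and 0.040 in Cy5 alone. The dimmer one had 105, 86, 78 and 78 units and changes of -0.27, -0.35 and -0.15, or -0.24, -0.25 and -0.20 in Cy5 alone. No direction can be given for CHAC1 as a gene, and on neither probe did it pass 1.5-fold. Both probes are annotated to the same transcript.

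SESN2 and PPP1R15A were dim and each had 1 damaged reference spot. SESN2, a sestrin that links leucine and stress to mTORC1, had a Cy5 signal of 123, 90, 129 and 111 units. Its Cy3 signal was 166 units untreated, 176.5 at 6 hours and 185 at 12 hours but 59 at 3 hours, where the spot lies in a damaged area. The ratio gave changes of 0.70, 0.09 and -0.03 and Cy5 alone -0.35, 0.16 and 0.05. The 3-hour value is the single rise past 1.5-fold in the branch, where 6.87% of all genes rose at that time (9.4% at 6 hours and 8.09% at 12 hours, with 0 of the 9 genes), and its sign depends on the damaged reference.

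PPP1R15A encodes GADD34, the subunit that brings phosphatase to eIF2 and ends the response. Its Cy5 signal was 64.5 units untreated and 155 to 161 units in the treated samples. Its Cy3 signal was 17.5 units on the untreated array, not well above background and in a damaged area, against 182 to 251 units on the others. Without the filter on dim probes the ratio gave -1.12, -1.26 and -1.13, whereas the Cy5 channel alone gave 0.77, 0.95 and 1.05. Its direction is not settled by these arrays, because the untreated Cy5 spot lies in the same damaged area.

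Upstream, the message of a kinase rose while that of ATF4 did not. EIF2AK3, which encodes PERK, changed by 1.39, 1.63 and 1.36, and by 1.52, 1.58 and 1.28 in Cy5 alone. On the probes that represent the genes it was 1 of 17 in a list of eIF2 kinases, subunits, exchange factors and phosphatases past 1.5-fold at 12 hours (8.09% of all genes), and another probe of PPP1CC, a catalytic subunit of the phosphatase, was at 0.59. The list had a median of 0.17 with 11 genes above and 6 below 0 (47.5% of all genes were below). The lowest was EIF2B5, a subunit of the exchange factor, at -0.44. Among 11 bZIP factors that pair with ATF4 or act beside it, 2 rose and 2 fell past 1.5-fold at 12 hours, when 8.09% and 5.13% of all genes did. ATF5 changed by -0.49, -0.61 and -1.02 and CEBPG, a dimer partner of ATF4, by -0.57, -0.88 and -0.64. JUN changed by 1.08, 1.04 and 0.98. ATF3 gave 0.69, 1.46 and 1.66 on its brightest probe, but its other probes gave 0.78, -0.05 and -0.06 at 12 hours.

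Genes of amino acid supply and transfer RNA charging, where most ATF4 targets of metabolism lie, showed both directions. Among 25 supply genes the median at 12 hours was -0.04, with 11 above and 14 below 0 (47.5% of all genes were below), and 3 past 1.5-fold upwards and 2 downwards. These are 12% and 8% of the list, near the 8.09% and 5.13% of all genes. SLC3A2, the shared heavy chain of several amino acid transporters, changed by -0.73, -0.82 and -0.95. MTHFD1L, a mitochondrial folate enzyme, reached -0.61 at 12 hours. SLC7A11, the cystine carrier that pairs with SLC3A2 and was picked after its values were seen, changed by -0.49, -0.69 and -0.58. These went the way of ASNS and PSAT1. CTH, which makes cysteine, went the other way with 0.33, 0.85 and 0.97, as did ALDH18A1 of proline synthesis with 0.66, 0.66 and 0.64. SLC38A2, a neutral amino acid carrier, gave 0.62 at 12 hours and 0.17 on its other probe. A list of 12 transfer RNA synthetases and XPOT, which exports transfer RNA from the nucleus, had a median of -0.13 at 12 hours. Of the 12 synthetases 9 were below 0 and 3 above, from -0.56 for TARS to 0.13 for GARS, and 0 passed 1.5-fold.

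Other reported targets of ATF4 or CHOP, genes of autophagy and growth arrest among them, had a higher median than the 9 genes. Of 19 measured, 12 were above 0 and 7 below at 12 hours (47.5% of all genes were below). Their median was 0.38, and 7 rose past 1.5-fold (8.09% of all genes). RCAN1, an inhibitor of calcineurin, was at 1.31, MAP1LC3B and GABARAPL2, which build autophagosomes, at 1.098 and 1.04, and the cell cycle inhibitor CDKN1A at 0.96. GADD45A was at 0.76, CCNG2 at 0.71 and KLHL24 at 0.68. The CCNG2 spot lies in a damaged area on at least 1 array, and another CCNG2 probe was at 0.57, short of 1.5-fold. VEGFA, the single fall past 1.5-fold at -0.61, had another probe at 0.22. Several of these genes also answer to factors other than ATF4, p53 and FOXO among them.

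Other stress programmes at 12 hours were set beside the branch. A list of the endoplasmic reticulum held chaperones and degradation genes, which answer mainly to ATF6 and XBP1, with XBP1 and the sensor ERN1 themselves. Of its 23 measured genes 21 were above 0 and 2 below (47.5% of all genes were below). Their median was 0.52, and 11 passed 1.5-fold upwards (8.09% of all genes). HSPA5 (BiP), the main chaperone there, changed by 0.24, 0.73 and 1.51, whereas XBP1 was the lowest of the list at -0.72, -1.15 and -0.48. The XBP1 probe has at least 1 of 10 spots in a damaged area, and Cy5 alone gave -0.63, -1.11 and -0.46. The 23 heat shock genes had a median of 0.18, which turned to -0.036 in Cy5 alone and -0.19 with median centring, and ranged from -0.70 for DNAJA4 to 1.19 for HSPA1A, whose near-identical copy HSPA1B may share its probe. Metallothioneins and related genes had a median of 0.46 over 12 genes, with MT1X at 1.62 and MT1M at -0.08. Targets of p53 had a median of 0.21 over 14 genes, with TP53INP1 at 1.40 and FAS at -0.36. Targets of NRF2 had 0.08 over 19 genes, with FTH1 at 0.70 and ABCC3 at -1.01. In these ratios the ATF4 branch, at -0.10, the transfer RNA list and the supply genes had medians below 0, and the other 8 lists above. The split depended on the scaling, since in Cy5 alone the branch was at 0.040 and heat shock at -0.036. With median centring heat shock, NRF2 targets, eIF2 control and bZIP factors were also below 0, at -0.19, -0.23, -0.11 and -0.20. The median of all genes was then -0.16, so a median below 0 is not by itself a fall of a list.

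**Figure D4:**
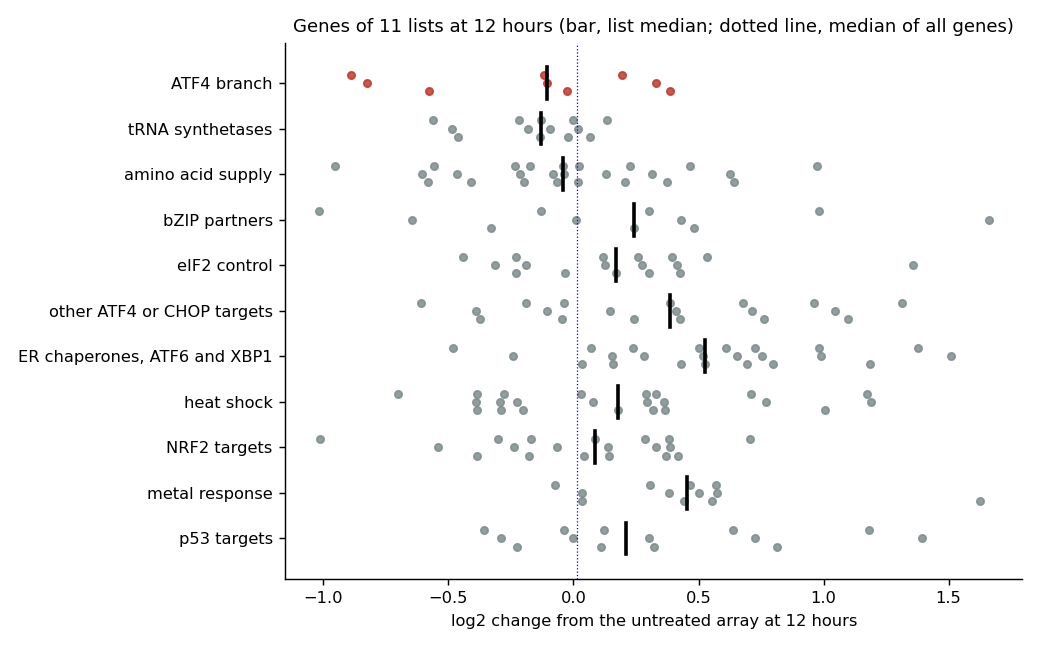
Log2 change from the untreated array at 12 hours (x axis) of each measured gene of 11 lists (rows), with list medians as bars and the median of all genes as a dotted line. The ATF4 branch has genes on both sides of 0, from -0.89 to 0.39, and the endoplasmic reticulum list lies mostly to the right with a median of 0.52.

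The changes of the branch were compared under other ways of processing. TRIB3, ASNS and PSAT1 stayed below 0 at all 3 times in each one, with TRIB3 between -1.73 and -1.34 at 6 hours, and so did ATF4, which ranged from -0.62 to -0.10 at 12 hours. PHGDH at 12 hours, DDIT4 at 12 hours and CHAC1 and SESN2 changed sign in at least 1 of them. Median centring of the arrays, under which the median of all genes was -0.16 at 12 hours, gave the lowest medians of the branch at 6 and 12 hours, -0.55 and -0.47, but the highest at 3 hours, -0.28.

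**Figure D5:**
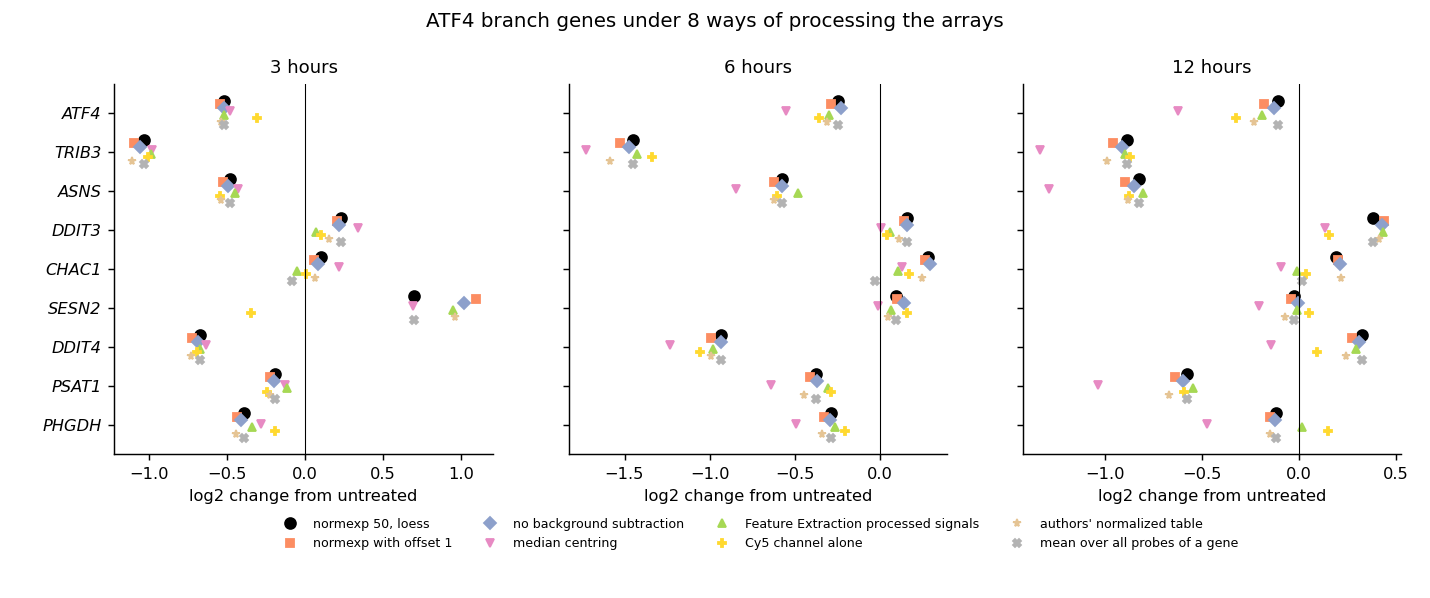
Log2 change from untreated (x axis) of the 9 measured genes (rows) at 3, 6 and 12 hours (panels), each symbol a way of processing the arrays and black circles the values of the text. TRIB3, ASNS, PSAT1 and ATF4 lie left of 0 throughout, while the symbols of CHAC1, SESN2, DDIT4 at 12 hours and PHGDH at 12 hours fall on both sides.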

How the data were processed

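The 4 two-colour Agilent arrays measured RNA of SUM149 cells. Per the file headers, Feature Extraction 12.0.1.1 gave the deposited intensity of each spot, its background, a log10 ratio and flags for outliers and for signal above background. A second deposited file holds log2 ratios normalized by the authors, whose normalization is not given in the sources used here. Gene symbols are those of that table, and no column of sample values was left unused.

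Median signals were corrected by normexp (offset 50), control spots left out, outlier spots set aside, and arrays normalized by loess and Aquantile (limma 3.58.1, R 4.3.3). Later steps used Python 3.11.15, numpy 2.4.6 and pandas 2.3.3. Spots were averaged per probe, and a gene took the probe brightest in Cy3. A change was used when its probe was well above background in both colours of both arrays, and the steps were tested on simulated data. The SD between spots came from probes with 9 or more spots. A damaged area was a window (13 rows by 7 columns) in which 10% or more of the spots were flagged as outliers in Cy3 or over 2-fold from the median Cy3 of the 4 arrays. The number of arrays limits the precision.

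The 10 genes and all lists were chosen with earlier results of these data known. Named genes are every member, the largest rise and fall of each list at 12 hours, and, in the eIF2, bZIP, supply and other-target lists, each gene past 1.5-fold at 12 hours. SLC7A11, and probes of PPP1CC, were added after their values were seen. Alternatives covered background, normalization, the single Cy5 channel, Feature Extraction's processed signals, the authors' table, the filter, the probes of a gene, damaged areas and the fold limit. Promoters were matched by symbol.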

Additional observations from a re-analysis of the deposited data

Results flagged for a closer look

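The Cy3 reference of the 11 probes was searched for an array standing apart from the other 3, which chance alone would give in about 1 of 20 sets of 4 values. For SESN2 the normalized log2 Cy3 signal was 6.61 on the 3-hour array and 7.66 to 7.74 on the others. For PPP1R15A it was 5.95 on the untreated array and 7.83 to 8.15 on the others. Both spots lie in damaged areas.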

How the results depend on the processing

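With median centring the median of the branch was -0.55 at 6 hours and -0.47 at 12 hours. The 12-hour list medians were then 0.20 for endoplasmic reticulum chaperones, -0.19 for heat shock, -0.23 for NRF2 targets and -0.44 for amino acid supply. The transfer RNA list, XPOT included, was at -0.50, eIF2 control at -0.11 and bZIP factors at -0.20. Other targets were at 0.047, metallothioneins at 0.016 and p53 targets at 0.012, while the median of all genes was -0.16 in place of 0.014. In the Cy5 channel alone the 12-hour medians were 0.040 for the branch, 0.38 for the chaperones and -0.036 for heat shock. They were -0.18 for supply, 0.23 for other targets and 0.33 for metallothioneins. The heat shock median was 0.039 with an offset of 1 and 0.013 with Feature Extraction's processed signals, and that of other targets was 0.22 with those signals and 0.25 as the mean over all probes of a gene. The cause of these shifts was not tested. At 1.5-fold 406, 900 and 1050 genes fell and 1427, 1912 and 1657 rose at 3, 6 and 12 hours, against 76, 191 and 229 that fell and 351, 572 and 479 that rose at 2-fold.

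Of 240 values of single members under the alternatives, 40 moved by more than the technical SD of the ratio. Many of the 240 could not move. Dropping the filter left all 27 values as they were, since these genes had passed it. The mean over probes could change CHAC1 alone, and leaving out damaged areas DDIT4 alone. The share of 40 in 240 thus understates the dependence. Median centring moved 17 of 27 values, Cy5 alone 9 and Feature Extraction's processed signals 6. The sign changed in 11 of the 240, all of CHAC1, SESN2, and DDIT4 and PHGDH at 12 hours. No paired analysis was possible because a single array stands for each condition. The mean signal of spots was not run, since the files used here hold the median. Outside damaged areas SESN2 and PPP1R15A could not be given. For dim probes such as SESN2 the offset shrinks changes, so 0.70 at 3 hours became 1.09 with an offset of 1.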
